A study of Mus musculus with 38 samples.

Results

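Ribosomal protein genes of the cytosolic ribosome were described in mouse tail skin. The genes were chosen by symbol, as all rows whose symbol starts with Rpl or Rps followed by a digit or equals Rplp0, Rplp1, Rplp2 or Rpsa, without S6 kinase genes and names with -ps. This gave 81 of 19218 genes, 48 with large subunit and 33 with small subunit names. Of them 71 encode standard ribosomal proteins (42 large, 29 small) and are called core genes here. The others are 7 paralogues (Rpl3l, Rpl7l1, Rpl10l, Rpl22l1, Rpl36al, Rpl39l and Rps27l), the 2 retrogenes Rps27rt and Rps23rg1, and Rps19bp1, which binds a ribosomal protein and is not one itself. Rpl23, Rpl24, Rpl31, Rpl41, Rps13 and Rps27 were not analysed here.

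The small subunit of the ribosome reads the messenger RNA and the large subunit joins the amino acids. Each subunit is built in the nucleolus from ribosomal RNA and a set of proteins, most of which are needed in equal numbers, so their genes are usually expressed together. Their messenger RNAs are short, abundant and long-lived, and in mammals they begin with a C and a run of pyrimidines (the 5′ terminal oligopyrimidine, or TOP, motif), through which mTOR controls their translation. In skin they are expressed in every cell type, and most strongly in cells that grow.

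The series studied a mouse model of vitiligo, in which skin loses pigment cells, the depletion of gut microbes by ABX, and hippuric acid, a metabolite that gut microbes help to form. Bulk RNA sequencing of tail skin gave 38 libraries. There were 6 libraries after vitiligo induction with ABX (vitiligo_ABX), 9 after vitiligo induction (vitiligo), 6 from wild type mice given ABX without induction (no_induction_ABX), 5 from wild type mice given hippuric acid intraperitoneally (hippuric_acid), 3 from wild type mice given the vehicle by the same route (vehicle) and 9 from wild type mice with neither (no_induction). The sources used here give no strain, age, sex, dose, batch or method of induction. They do not say whether each library came from a separate mouse either, so p-values measure the spread between libraries, which may be technical.

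The libraries held 15.3 M to 27.9 M counts. Keratinocyte markers were present in every library, with at least 1616 CPM (counts scaled to library size and TMM factor) of Krt14 and 734 CPM of Krt1. Y-linked Ddx3y exceeded 10 CPM in no_induction 011 and 012 and vehicle 001, and the gut gene Fabp2 exceeded 1 CPM in these 3 and in vitiligo 000 and 260. The summed level of 6 adipocyte genes was 157 to 464 CPM in vitiligo_ABX, 1029 to 3090 in vitiligo, 105 to 278 in no_induction_ABX, 112 to 411 in hippuric_acid, 898 to 1114 in vehicle and 240 to 851 in no_induction. TMM factors, which correct for library composition, were 1.01 to 1.12 in the 17 libraries given ABX or hippuric acid and 0.879 to 1.01 in the other 21. The 50 most abundant genes outside the list took 14.1% to 16.0% of counts in those 17 libraries and 16.2% to 20.3% in the other 21. The labels give no batch, so any difference in handling between these 2 sets of libraries cannot be told apart from treatment. In bulk tissue fewer cells of a type and less RNA per cell cannot be told apart.

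Core genes lay within a narrow band of expression. Per kilobase of coding sequence the median core gene had 1740 CPM, and 63 of 71 lay within 2-fold of it. Small subunit genes had a median of 1988 CPM per kb and large subunit genes of 1627. The highest were Rps24 (4610), Rpl12 (3797) and Rps14 (3739 CPM per kb), and the lowest Rps28 (801), Rpl36 (831) and Rps21 (859), so the core range was 5.76-fold. Rps28 and Rps21 are among the 7 core genes with a coding length under 300 nt, for which reads per kb are least certain. The paralogues were lower. Rpl36al had 405, Rps27l 386, Rpl22l1 232, Rpl7l1 111 and Rpl39l 12.1 CPM per kb. Rpl3l, known from skeletal muscle and heart, had 20 counts over all 38 libraries, and Rpl10l, known from the male germ line, had 0 counts in every library.

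All 81 genes together took 5.82% to 10.005% of the counts of a library. The share was 6.58% ± 0.61 in vitiligo_ABX (SD, n = 6), 8.11% ± 0.87 in vitiligo (n = 9), 7.04% ± 0.98 in no_induction_ABX (n = 6), 6.23% ± 0.28 in hippuric_acid (n = 5), 7.99% ± 1.68 in vehicle (n = 3) and 7.83% ± 1.20 in no_induction (n = 9). Groups overlapped in 5 of the 6 comparisons, and only hippuric_acid (at most 6.59%) lay below every library of its comparison group, vehicle (at least 6.75%). The highest share in each wild type control group was in libraries with Y-linked and gut transcripts, no_induction 012 (10.005%) and vehicle 001 (9.90%).

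**Figure D1:**
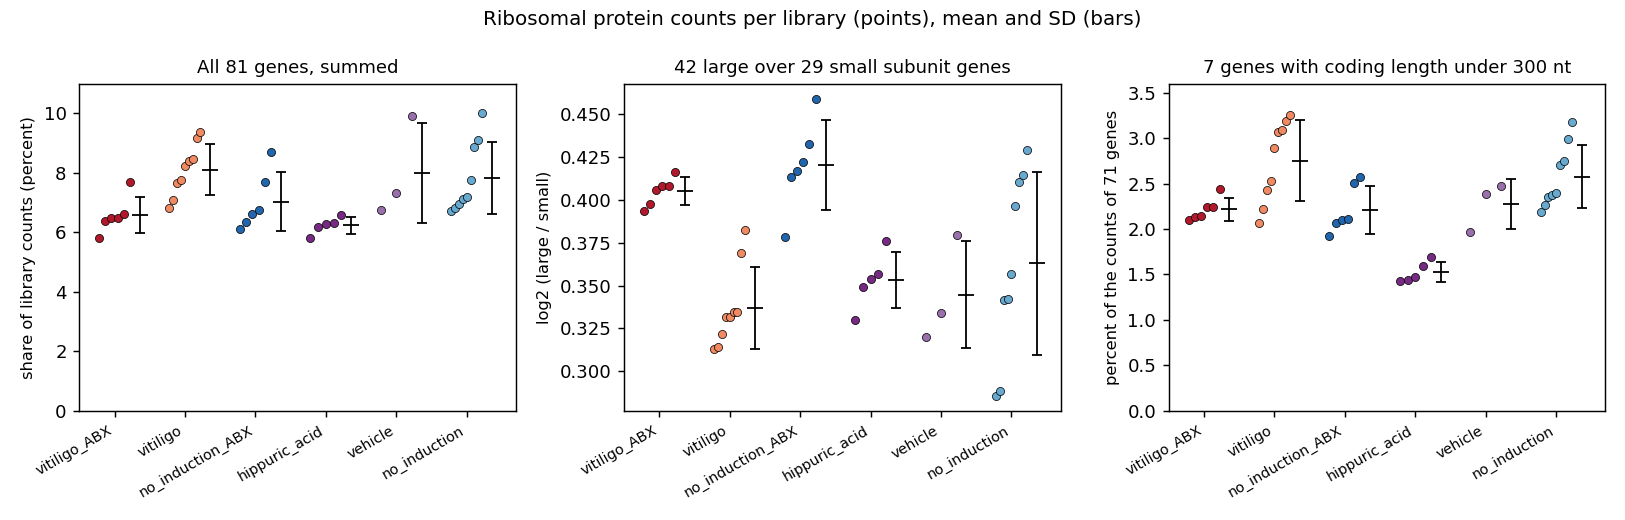
Per library (points), the share of counts of all 81 genes in percent, the log2 ratio of summed large to summed small subunit core counts, and the percent of core counts from the 7 core genes under 300 nt; bars give mean and SD per group, and the middle axis does not start at 0. The share of hippuric_acid libraries (5.82% to 6.59%) lies below all vehicle libraries, and the large to small ratio of vitiligo_ABX (0.39 to 0.42) lies above all vitiligo libraries.

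With ABX on top of vitiligo induction, ribosomal protein genes were lower across the ribosome. Of 78 genes tested 61 fell and 0 rose (adjusted p under 0.05 in edgeR), 34 of 46 large and 27 of 32 small subunit genes, against 8.05% of all genes tested that were called lower and 5.06% called higher. The median log2 fold change was -0.44 over the 78 genes, against 0.02 over all 14014 genes. Estimates of all 71 core genes were below 0, between -1.04 and -0.17. In 15 genes, Rpl39l among them, every vitiligo_ABX library lay below every vitiligo library, which held for 2.06% of all genes. Rpl39l is a low gene that passed the filter on low counts through the vitiligo libraries. Of the 71 core genes, which leave it out, 58 were called lower.

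Among large subunit genes with the smallest p, Rpl17, which lies at the exit of the tunnel for the growing protein, had 720, 840 and 911 CPM (lowest, median, highest) in vitiligo_ABX and 933, 1339 and 1562 CPM in vitiligo. The groups did not overlap, with a log2 fold change of -0.67 ± 0.12 (SE, adjusted p = 0.00145). Rpl34 had 412, 488 and 565 CPM in vitiligo_ABX and 560, 721 and 868 CPM in vitiligo, with an overlap of the highest vitiligo_ABX and the lowest vitiligo library, and fell by 0.60 ± 0.11 (adjusted p = 0.00155). Of the small subunit, Rps12 had 849, 939 and 1152 CPM in vitiligo_ABX and 1203, 1636 and 2248 CPM in vitiligo, with no overlap, and fell by 0.78 ± 0.13 (adjusted p = 0.00116). Rps21 fell by 0.82 ± 0.15 (adjusted p = 0.00206) with 144 to 201 CPM in vitiligo_ABX and 179 to 390 CPM in vitiligo. Rps29 and Rps28, both small subunit proteins, had 134 to 180.1 and 103 to 151 CPM in vitiligo_ABX and 162 to 539 and 131 to 339 CPM in vitiligo. Both overlapped between the groups, with log2 fold changes of -1.04 ± 0.22 (adjusted p = 0.00485) and -0.96 ± 0.19 (adjusted p = 0.00377), the lowest of the core genes. The vitiligo libraries were split in both genes, with the same libraries on the upper side. Rps29 was at most 274 or at least 352 CPM there, and Rps28 at most 197 or at least 263 CPM. The lower libraries lay nearer to vitiligo_ABX, and a fit without all of the upper libraries was not run. Rplp0, the base of the stalk that recruits translation factors, fell by 0.34 ± 0.11 (adjusted p = 0.0433). Rps6, the substrate of S6 kinase, fell by 0.44 ± 0.09 (adjusted p = 0.00537). Rpl4, whose loop lines the exit tunnel, was not called (log2 fold change -0.20 ± 0.10, adjusted p = 0.181).

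The adipocyte level did not overlap between these groups either, and all 6 adipocyte markers were called lower. Of suprabasal keratinocyte markers 4 of 6 were called lower (a sum of 9297 to 16044 CPM in vitiligo_ABX and 14335 to 31554 CPM in vitiligo), and of pigment cell markers 3 of 5 higher (97.6 to 213 CPM in vitiligo_ABX and 10.9 to 108 CPM in vitiligo), whose part in the result was not tested. With the adipocyte level as a covariate 0 of 78 genes were called and the median was 0.10. Since that level did not overlap between the groups, this fit cannot reliably separate it from ABX. Without the 2 vitiligo libraries that held gut transcripts 40 were called lower at a median of -0.43. An offset for coding length and GC content, fitted on genes outside the list, kept the direction with 39 called lower at a median of -0.29. The share of all genes called in such alternative fits was not compared, here or below.

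ABX without induction gave the same direction with fewer calls. Of 78 genes 37 fell and 0 rose, 21 of 46 large and 16 of 32 small, against 15.8% of all 13971 genes called lower and 15.4% called higher. The median was -0.33 against 0.00 over all genes, and all 78 estimates were below 0. In 3 genes, the low gene Rpl39l among them, every no_induction_ABX library lay below every no_induction library, below the 4.43% of all genes for which this held. Rpl39l passed the filter through the no_induction libraries. Of the 71 core genes, which leave it out, 32 were called lower. Rps29, a zinc-binding protein of the small subunit head, had 119, 148 and 215 CPM (lowest, median, highest) in no_induction_ABX and 172, 275 and 384 CPM in no_induction. The groups overlapped, with a log2 fold change of -0.79 ± 0.18 (adjusted p = 0.00358). Rps28 had 83.5, 117 and 175 CPM in no_induction_ABX and 125, 206 and 280 CPM in no_induction, again with overlap, and fell by 0.72 ± 0.18 (adjusted p = 0.00774). Rps9, which sits near the decoding site, fell by 0.46 ± 0.12 (adjusted p = 0.00835). Rps6 fell by 0.47 ± 0.12 (adjusted p = 0.00915) and Rplp0 by 0.38 ± 0.12 (adjusted p = 0.0265). Rpl4 was called here (-0.28 ± 0.10, adjusted p = 0.0485).

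Markers of other cell types moved with this comparison too. All 6 hair follicle markers were called lower (a sum of 1093 to 5933 CPM in no_induction_ABX and 4133 to 14712 CPM in no_induction), as were 4 of 6 suprabasal keratinocyte markers (9115 to 19334 CPM in no_induction_ABX and 17702 to 39396 CPM in no_induction) and all 6 adipocyte markers, while 3 of 4 Schwann cell markers were called higher (421 to 1024 CPM in no_induction_ABX and 332 to 641 CPM in no_induction). Keratin genes took 3.01% to 5.20% of counts in no_induction_ABX and 5.38% to 8.63% in no_induction, with no overlap. The part of hair follicle, keratinocyte and Schwann cell markers in the result was not tested.

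Calls in this comparison depended on the scaling and on single libraries. With library totals in place of TMM factors 8 genes were called lower, a scaling that moved the median of all genes to 0.15 and of the list to -0.16, and 13 were called lower without no_induction 011 and 012. Without no_induction_ABX 001 the count was 12, with the length and GC offset 11, and in the fit that included adipocyte level 1 gene was called lower and 2 higher at a median of 0.18. The adipocyte sum barely overlapped between these groups (105 to 278 CPM in no_induction_ABX and 240 to 851 CPM in no_induction). That fit therefore cannot reliably separate it from ABX.

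With hippuric acid, set against its vehicle, ribosomal protein genes were again lower across both subunits. Of 78 genes 47 fell and 0 rose, 27 of 46 large and 20 of 32 small, against 8.29% of all 14097 genes called lower and 5.48% called higher. The median was -0.56 against 0.02 over all genes, and all 71 core estimates were below 0, between -1.69 and -0.13. In 68 genes, the low gene Rpl39l among them, every hippuric_acid library lay below every vehicle library, which held for 12.7% of all genes. Rpl39l passed the filter through the vehicle libraries. Of the 71 core genes, which leave it out, 43 were called lower.

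Rps29 had 89.7, 84.2, 72.1, 72.9 and 64.8 CPM in hippuric_acid and 342, 250 and 149 CPM in vehicle. No library overlapped, and the log2 fold change was -1.69 ± 0.22 (adjusted p = 0.00154). Rps28 had 79.96, 79.8, 65.6, 64.1 and 63.4 CPM in hippuric_acid and 259, 155 and 120.5 CPM in vehicle, and fell by 1.34 ± 0.21 (adjusted p = 0.0032). Of the large subunit, Rpl38, in which the Tail short mutation of mice lies, had 86.0, 90.6, 78.4, 79.3 and 84.1 CPM in hippuric_acid and 269, 183 and 130.2 CPM in vehicle. It fell by 1.21 ± 0.18 (adjusted p = 0.00222) with no overlap. Rpl39, a small protein of the exit tunnel, had 133, 140.4, 114, 121 and 139 CPM in hippuric_acid and 330.2, 287 and 211 CPM in vehicle, and fell by 1.09 ± 0.14 (adjusted p = 0.00125). In all 4 genes vehicle 001 was the highest library and vehicle 003 the lowest of the vehicle group. Rps23, of the decoding centre, fell by 0.77 ± 0.14 (adjusted p = 0.00649), and Rplp0 by 0.60 ± 0.15 (adjusted p = 0.0241). Rps6 missed the threshold (-0.47 ± 0.14, adjusted p = 0.0554), as did Rpl4 (-0.13 ± 0.13, adjusted p = 0.541).

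Rpl10, which joins the large subunit late in its assembly, was among the 3 large subunit genes with the smallest p and fell by 0.92 ± 0.12 (adjusted p = 0.00154). Its value cannot be read alone. Rpl10-ps3, a row outside the list, has a coding sequence identical to that of Rpl10 at 642 of 642 bases, and both carried values that were not whole in the deposited table. Rpl10-ps3 took 59.5% to 66.6% of their summed counts in hippuric_acid and 48.0% to 58.6% in vehicle. The sum was 1033 ± 34.7 CPM in hippuric_acid and 1577 ± 439 CPM in vehicle (SD, n = 5 and 3), a ratio of 0.655, with no overlap.

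Without vehicle 001, the library with Y-linked and gut transcripts, 39 genes were called lower and 1 higher, and the median was -0.35. Without hippuric_acid 3 the count was 30. The adipocyte level did not overlap between these groups. With it as a covariate 0 genes were called at a median of -0.57, in a fit that cannot reliably separate it from hippuric acid. Suprabasal keratinocyte markers did not overlap either (a sum of 9510 to 12047 CPM in hippuric_acid and 26199 to 37977 CPM in vehicle). Of basal keratinocyte markers 3 of 4 fell as well. Keratin genes took 4.12% to 5.06% of counts in hippuric_acid and 6.47% to 7.02% in vehicle, with no overlap. Pigment cell markers summed to 80.9 to 142.5 CPM in hippuric_acid and 65.5 to 79.0 CPM in vehicle, and 2 of 5 were called higher. The part of these markers in the result was not tested.

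**Figure D2:**
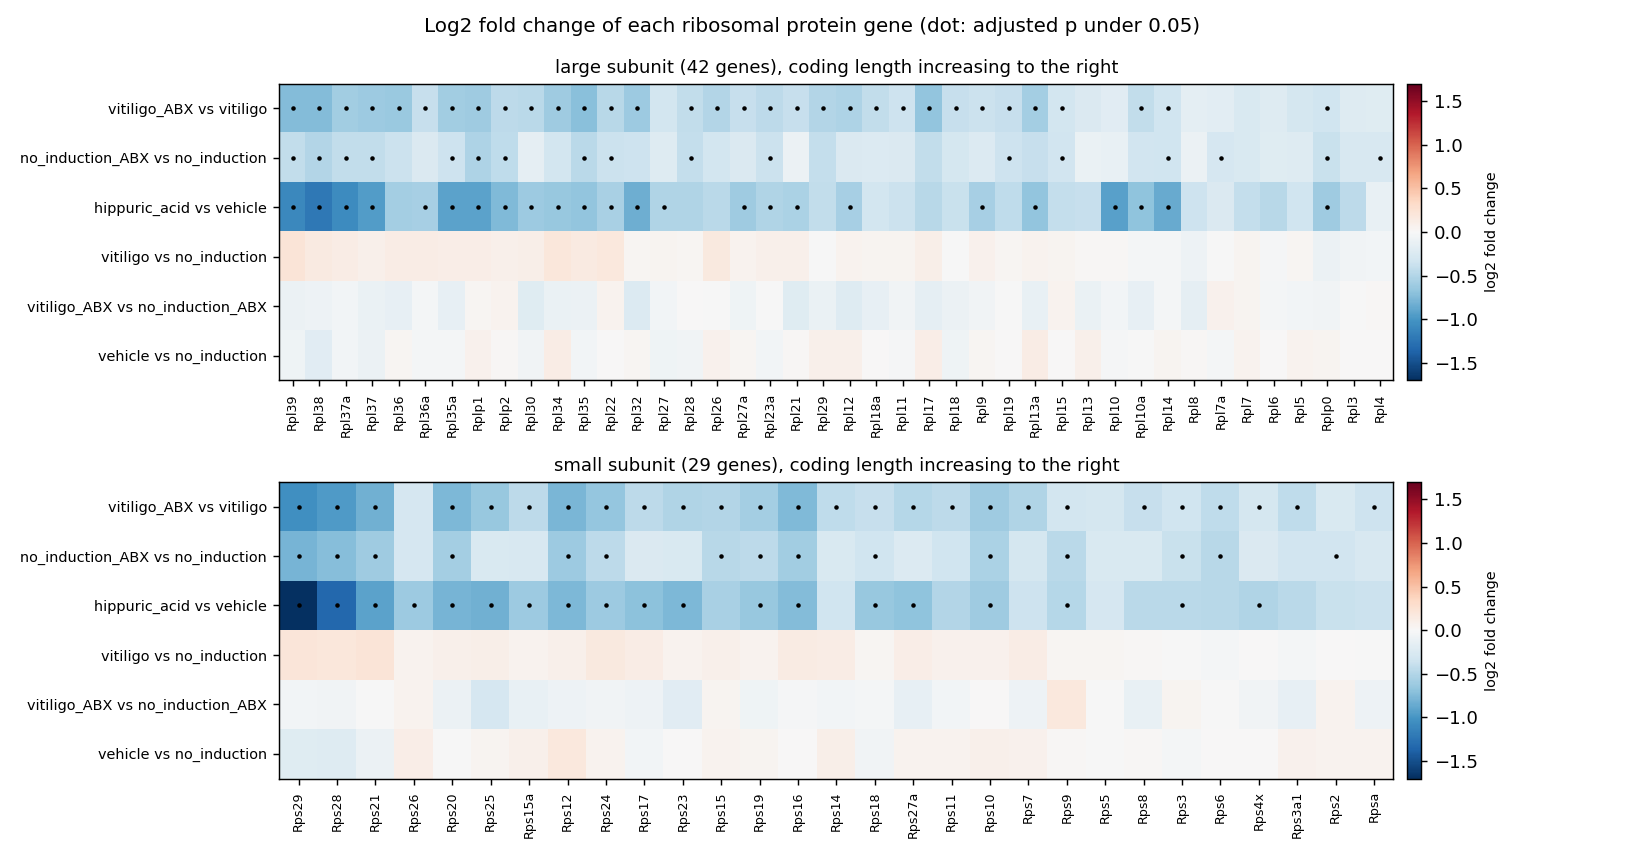
Log2 fold change of the 42 large and 29 small subunit core genes (columns, shortest coding length on the left) in 6 comparisons (rows, named with the numerator first); a dot marks adjusted p under 0.05. The 3 upper rows, with ABX or hippuric acid, are below 0 for all 71 genes, lowest for Rps29 and Rps28, and the 3 lower rows hold no dot.

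The other comparisons held almost no calls. In vitiligo against no_induction 0 of 78 genes were called by edgeR, against 7.74% of all 13826 genes, and 1 had an unadjusted p under 0.05. DESeq2 called 1 and limma-voom 15, of which 14 were higher. The median was 0.06, against 0.01 over all genes. Rpl39l had the smallest p (log2 fold change 0.97 ± 0.32, adjusted p = 0.0637), followed among large subunit genes by Rpl22 (0.18 ± 0.10, adjusted p = 0.239), and Rps21 led the small subunit (0.22 ± 0.14, adjusted p = 0.354). Adipocyte levels did not overlap between these groups. With that level as a covariate the median was -0.38, in a fit that cannot reliably separate it from induction. In vehicle against no_induction 0 of 78 genes were called, as were 0 of all 14175 genes (0%), 0 had an unadjusted p under 0.05, and DESeq2 called 0 of the 78. The median was 0.02. Vehicle 001 and 003 pulled it to either side, since it was -0.19 without vehicle 001 and 0.15 without vehicle 003. These comparisons share libraries with those above (vitiligo, no_induction and vehicle).

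In vitiligo_ABX against no_induction_ABX 1 of 77 genes was called, Rpl7l1 (Rpl39l was too low to be tested here), against 4.97% of all 13876 genes. The median was -0.05. Core genes with the smallest p were Rpl32 (-0.23 ± 0.11, adjusted p = 0.236) and Rps25 (-0.29 ± 0.12, adjusted p = 0.182). The interaction of induction and ABX asks whether the difference with ABX depends on induction. It was called for the same 1 gene of 78, against 11.5% of all 14310 genes, and the median interaction was -0.14. Rpl30 (-0.32 ± 0.16, adjusted p = 0.18) and Rps25 (-0.39 ± 0.20, adjusted p = 0.189) came next among core genes and were not called.

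Large and small subunit genes kept nearly the same proportion. The log2 ratio of summed large to summed small core counts was 0.41 ± 0.01 in vitiligo_ABX (SD, n = 6), 0.34 ± 0.02 in vitiligo (n = 9), 0.42 ± 0.03 in no_induction_ABX (n = 6), 0.35 ± 0.02 in hippuric_acid (n = 5), 0.34 ± 0.03 in vehicle (n = 3) and 0.36 ± 0.05 in no_induction (n = 9). Every vitiligo_ABX library (0.39 to 0.42) lay above every vitiligo library (0.31 to 0.38), a difference of 0.07. The no_induction_ABX libraries (0.38 to 0.46) overlapped those of no_induction (0.29 to 0.43), with a difference of 0.06, and hippuric_acid (0.33 to 0.38) overlapped vehicle (0.32 to 0.38), with a difference of 0.01. With the mean log2 count per gene in place of summed counts the differences were 0.09, 0.09 and 0.04 in the same order, and the groups then did not overlap with ABX alone either. Median log2 fold changes of large and small core genes were -0.42 and -0.45 with ABX on vitiligo, -0.32 and -0.33 with ABX alone, and -0.55 and -0.62 with hippuric acid. Small subunit genes are somewhat shorter, with a median coding length of 453 nt against 487.5 nt for large subunit genes. In the same comparisons small core medians were below large ones in each length class (under 300, 300 to under 600, 600 nt or more). Large and small medians were -0.68 and -0.96, -0.45 and -0.50, and -0.25 and -0.34 with ABX on vitiligo. They were -0.42 and -0.72, -0.33 and -0.34, and -0.27 and -0.30 with ABX alone. With hippuric acid they were -1.08 and -1.34, -0.55 and -0.63, and -0.43 and -0.46. These differences were not tested.

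The size of the difference followed coding length. With ABX on vitiligo the median log2 fold change was -0.74 in the 7 core genes under 300 nt, -0.48 in the 42 genes from 300 to under 600 nt and -0.30 in the 22 genes of 600 nt or more. All 7, 40 and 11 of these were called lower. Genes outside the list showed a smaller order of the same kind, with medians of -0.32 (298 genes), -0.14 (1456) and 0.04 (12182), and 32.9%, 16.9% and 5.94% called lower. With ABX alone core medians were -0.49, -0.34 and -0.28, and those of other genes -0.27, -0.10 and 0.02. With hippuric acid core medians were -1.09, -0.59 and -0.45, and those of other genes -0.39, -0.18 and 0.05. Within each length class the core median was below that of other genes in all 3 comparisons, a difference that was not tested. In vitiligo against no_induction the order was turned round, with core medians of 0.19, 0.09 and 0.00. In the vitiligo libraries high in Rps29 and Rps28 the 7 core genes under 300 nt took at least 3.07% of core counts. In the other vitiligo libraries they took at most 2.89%, and the part of this split in the order was not tested. Spearman's rho between log2 fold change and coding length over 71 core genes was 0.75, 0.42, 0.71 and -0.81 in these 4 comparisons, and 0.26, 0.16, 0.27 and -0.13 over the other genes. These are descriptions over genes of the same libraries, which are not independent, and the part of RNA quality, fragment size or library preparation was not tested.

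**Figure D3:**
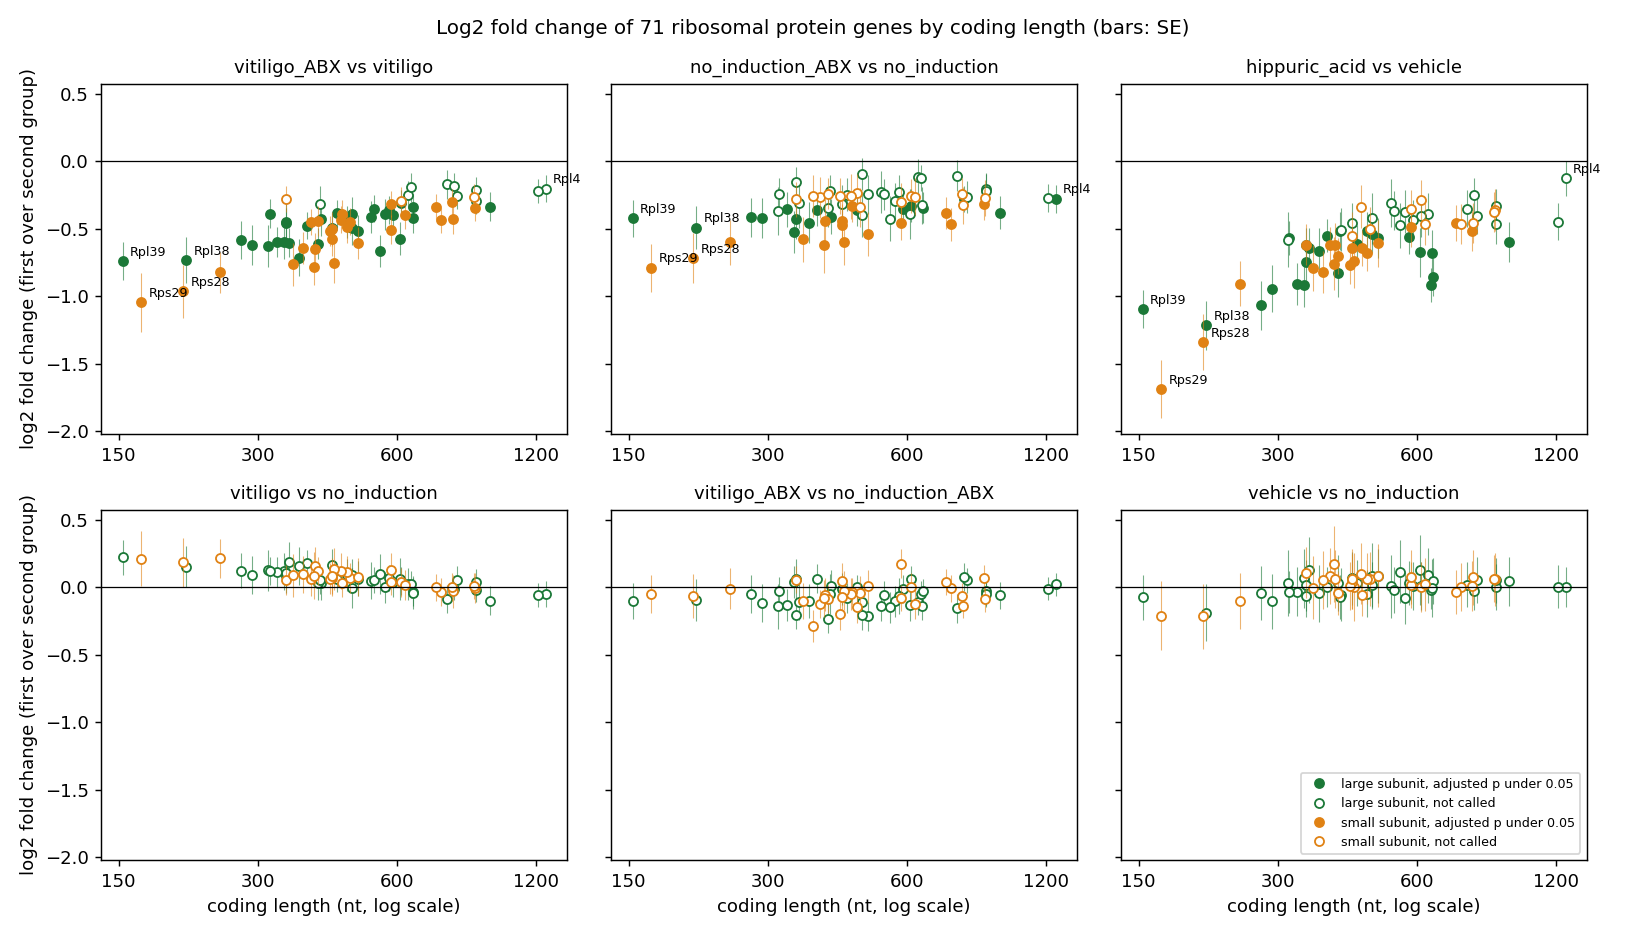
Log2 fold change (first over second group, bars SE) of the 71 core genes against coding length in nt on a log axis, for 6 comparisons; green marks large and orange small subunit genes, filled where adjusted p was under 0.05. In the upper panels all points lie below 0 with Rps29 and Rps28 lowest, followed by Rpl38 and Rpl39 with hippuric acid (-1.21 and -1.09), where Rpl4 lies at -0.13.

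To see which genes differed from the ribosome as a whole, each library was also scaled to the summed counts of the list. With ABX on vitiligo 9 of 78 genes fell and 1 rose against this total (2.73% of all genes fell and 60.9% rose, since the list itself is the scale). Rps29 fell by 0.59 ± 0.17 (adjusted p = 0.00704), Rps28 by 0.52 ± 0.15 (adjusted p = 0.00702), Rps21 by 0.39 ± 0.12 (adjusted p = 0.0102) and Rps12 by 0.35 ± 0.11 (adjusted p = 0.0116). The others that fell were Rps20, Rps16, Rpl39, Rpl35 and the low gene Rpl39l, so that 6 of the 9 were small subunit genes. With ABX alone 3 of 78 genes (3.85%) fell and 0 rose, against 3.36% and 32.5% of all genes. The count that fell is near the share of all genes and is no result about the list. The 3 that fell were the low gene Rpl39l, Rps29 (-0.50 ± 0.16, adjusted p = 0.0192) and Rps28 (-0.42 ± 0.15, adjusted p = 0.0307). With hippuric acid 8 fell and 3 rose (1.45% and 42% of all genes). Rps29 fell by 1.12 ± 0.19 (adjusted p = 0.00128), Rps28 by 0.77 ± 0.18 (adjusted p = 0.00579) and Rpl38 by 0.65 ± 0.16 (adjusted p = 0.00811), along with Rpl39, Rpl37a, Rpl10, Rpl22l1 and Rpl39l. Rps29 kept this call in 9 of 9 alternatives, but Rpl10 lost it in 7 of 9 (adjusted p up to 0.118) and Rpl22l1 in 5 of 9 (up to 0.137). Rpl4 (0.39 ± 0.15, adjusted p = 0.048), Rpl7l1 and Rps27rt rose. Without vehicle 001 the count was 15, and without vehicle 002 it was 6. In vitiligo against no_induction, vitiligo_ABX against no_induction_ABX and vehicle against no_induction 0 genes were called against this total (2.94%, 3.46% and 0% of all genes), with 1, 3 and 0 at an unadjusted p under 0.05. This scaling was run in edgeR only.

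Rps28 is shown as a short core gene, with the second lowest estimate among core genes in all 3 comparisons with ABX or hippuric acid. Its coding sequence is from GENCODE M21 on GRCm38, 5′ to 3′ without the stop codon, with the start codon in capitals. It spans chr17:33823211-33824472 (minus strand, coding exons with introns between) and has 207 coding bases.
Rps28: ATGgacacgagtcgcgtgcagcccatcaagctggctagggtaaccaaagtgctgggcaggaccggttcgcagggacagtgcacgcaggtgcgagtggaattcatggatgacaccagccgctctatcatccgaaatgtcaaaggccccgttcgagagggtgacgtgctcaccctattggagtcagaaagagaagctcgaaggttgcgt

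Most tested paralogues moved with the core genes in the 3 comparisons with ABX or hippuric acid, while Rpl7l1 differed between them. Rpl39l, a paralogue of Rpl39 known from the male germ line of mice, was a low gene. In the 3 comparisons with ABX or hippuric acid it passed the filter on low counts through the vitiligo, no_induction and vehicle libraries, where it was higher, and between vitiligo_ABX and no_induction_ABX it was too low to be tested. The estimates and p below are therefore a description. It had 0, 0.303 and 1.14 CPM (lowest, median, highest) in vitiligo_ABX and 1.97, 3.93 and 6.94 CPM in vitiligo. The groups did not overlap, with a fitted log2 fold change of -3.09 ± 0.56 (adjusted p = 0.00183). It had 0.0545, 0.408 and 0.485 CPM in no_induction_ABX and 0.666, 1.81 and 3.91 CPM in no_induction, with no overlap and a fitted log2 fold change of -2.60 ± 0.44 (adjusted p = 0.000399). In hippuric_acid it had 0.306, 0.709, 0.212, 0.777 and 0.194 CPM and in vehicle 2.5, 3.25 and 1.58 CPM, with no overlap and a fitted log2 fold change of -2.44 ± 0.46 (adjusted p = 0.00732). These levels rest on few counts, 54 over the 6 vitiligo_ABX libraries and 692 over the 9 vitiligo libraries, and fitted folds of such a gene depend on the prior count. With the adipocyte level as a covariate the log2 fold changes were 0.71, 0.0041 and 0.0358, and none was called. As stated above, these fits cannot reliably separate that level from ABX or hippuric acid.

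The coding sequences of Rpl39l and Rpl39 are shown because their reads could be mixed up. They have 153 bases each and are identical at 130 of them, with the 23 that differ in capitals (GENCODE M21, GRCm38). The Rpl39l coding sequence lies at chr16:10174310-10174462 (plus strand) in a single exon, and that of Rpl39 spans chrX:37082704-37085127 (minus strand).
Rpl39l: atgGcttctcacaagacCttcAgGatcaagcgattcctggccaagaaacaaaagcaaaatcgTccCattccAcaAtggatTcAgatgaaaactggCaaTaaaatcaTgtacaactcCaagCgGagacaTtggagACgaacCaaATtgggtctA
Rpl39: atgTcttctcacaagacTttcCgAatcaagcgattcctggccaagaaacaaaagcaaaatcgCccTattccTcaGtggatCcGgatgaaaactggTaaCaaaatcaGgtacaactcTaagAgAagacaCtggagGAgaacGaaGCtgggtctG
Both genes had whole counts in all libraries of the deposited table, unlike 19 other genes of the list, and averaged 252 CPM (Rpl39) and 1.84 CPM (Rpl39l) over all libraries.

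Rpl7l1, a paralogue of Rpl7, had the only estimate above 0 among the 78 genes with ABX on vitiligo. Its values were not whole in 11 libraries. It had 77.7, 88.6 and 99.2 CPM (lowest, median, highest) in vitiligo_ABX, 65.6, 75.6 and 104.5 in vitiligo, 68.5, 73.4 and 76.0 in no_induction_ABX and 74.2, 86.1 and 94.9 in no_induction. All vitiligo_ABX libraries lay above all no_induction_ABX libraries, which held for this 1 gene of 77 and for 2.18% of all genes, and the other pairs overlapped. The difference with ABX was 0.19 ± 0.10 with induction (adjusted p = 0.199) and -0.24 ± 0.06 without (adjusted p = 0.00937). The difference of these differences was 0.42 ± 0.11 (adjusted p = 0.0156). With induction and ABX it was 0.30 ± 0.08 above ABX alone (adjusted p = 0.0448), a call lost in 17 of 22 alternatives, which included other scalings. With the adipocyte level as a covariate the interaction was 0.43 (adjusted p = 0.067). Against the total of the list Rpl7l1 rose by 0.61 ± 0.11 with ABX on vitiligo (adjusted p = 0.000676) and by 0.60 ± 0.17 with hippuric acid (adjusted p = 0.0156).

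**Figure D4:**
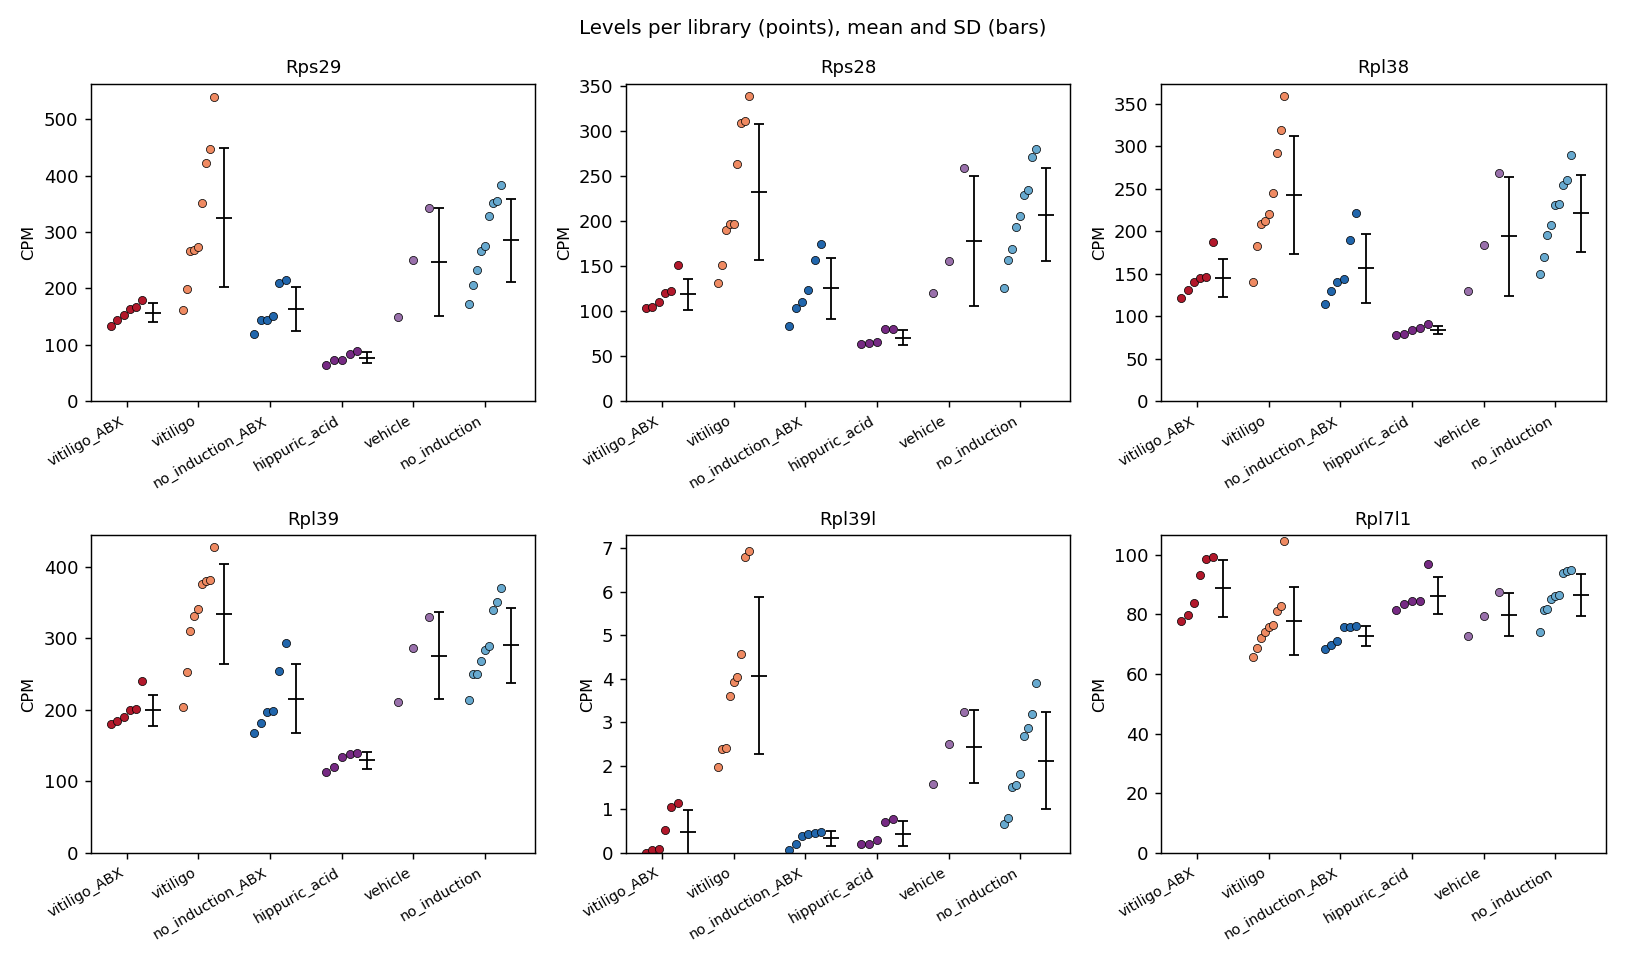
CPM per library (points) of 4 short core genes and the paralogues Rpl39l and Rpl7l1 in 6 groups, with mean and SD (bars) and axes from 0. All hippuric_acid libraries of Rps29 (64.8 to 89.7) lie below all vehicle libraries (149 to 342), and Rpl39l is at 1.14 or less in all 17 libraries with ABX or hippuric acid.

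Other paralogues moved with the core genes. Rpl22l1, which can stand in for Rpl22 in mice, fell by 0.53 ± 0.12 with ABX on vitiligo (adjusted p = 0.00921), by 0.48 ± 0.13 with ABX alone (adjusted p = 0.0113) and by 1.04 ± 0.14 with hippuric acid (adjusted p = 0.00148). In hippuric_acid it had 45.2, 47.2, 46.3, 52.95 and 49.5 CPM and in vehicle 109, 115 and 72.8 CPM, with no overlap. Rps27l, a target of p53, fell by 0.59 ± 0.09 (adjusted p = 0.000641), 0.43 ± 0.14 (adjusted p = 0.0239) and 0.69 ± 0.15 (adjusted p = 0.0137) in the same order. Rpl36al, whose values were not whole and may share reads with Rpl36a, was not called with ABX on vitiligo (-0.35 ± 0.15, adjusted p = 0.143) and fell by 0.40 ± 0.13 with ABX alone (adjusted p = 0.0255) and by 0.55 ± 0.11 with hippuric acid (adjusted p = 0.00803). In vehicle against no_induction Rpl36al had the smallest p of the large subunit (-0.25 ± 0.17, adjusted p = 0.999). The retrogene Rps27rt had 7.55, 7.94, 8.26, 5.85 and 9.11 CPM in hippuric_acid and 6.07, 3.31 and 1.58 CPM in vehicle. These overlapped, and it was not called (1.06 ± 0.34, adjusted p = 0.0616), though it was against the list's own total (1.67 ± 0.27, adjusted p = 0.00118). Its values were not whole in any library, so reads may be shared with genes of like sequence. Rpl3l, Rpl10l and Rps23rg1 were too low to be tested in any comparison.

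Genes that act with the ribosome were counted beside it. Of all genes 8.05% were called lower with ABX on vitiligo, 15.8% with ABX alone and 8.29% with hippuric acid, so that a count near these shares, such as that of the mTOR pathway or mitochondrial ribosome with ABX alone, is no result about its list. Of 21 translation factors and other growth-regulated messenger RNAs 3 fell with ABX on vitiligo (median -0.15), 10 with ABX alone (-0.25) and 4 with hippuric acid (-0.22), and 0 rose. Fau, whose product includes a ribosomal protein of the small subunit, fell by 0.63 ± 0.12 with ABX on vitiligo (adjusted p = 0.00277), and the elongation factor Eef1b2 fell in all 3 (by 0.37 ± 0.09, 0.52 ± 0.11 and 0.59 ± 0.13; adjusted p = 0.0111, 0.00206 and 0.0155). Of 32 ribosome biogenesis genes 1 rose and 0 fell with ABX on vitiligo (median 0.07), 8 fell and 0 rose with ABX alone (-0.16), and 4 fell and 1 rose with hippuric acid (0.12). Nop10, a short gene of the particles that modify ribosomal RNA, fell by 0.88 ± 0.13 with hippuric acid (adjusted p = 0.00185). Of 20 genes of the mTOR pathway 1 fell with ABX on vitiligo, 4 fell and 1 rose with ABX alone and 2 fell with hippuric acid, with medians of -0.03, -0.08 and -0.03. Mlst8, a subunit of mTOR complexes, fell by 0.69 ± 0.09 with ABX alone (adjusted p = 5.84e-05). Of 77 genes of the mitochondrial ribosome 9, 16 and 15 fell and 0 rose in the 3 comparisons, with medians of -0.16, -0.17 and -0.22. The difference between the medians of cytosolic and mitochondrial ribosomal protein genes was not tested.

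Start sites of the list were searched for the TOP motif. RefSeq start sites on GRCm38.p6 were matched by symbol for 61 of 81 genes. A C at the start followed by at least 4 bases that are each C or T was found in 13 of 61 (21.3%), against 3.01% of all 27025 symbols. Allowing 5 bases on either side it was found in 29 of 61 (47.5%), against 21.2% of all, and in 15 of 30 large and 10 of 21 small subunit core genes. The search read the strand of the gene only, since the motif is one of RNA. Windows of 30 bases before and 20 after the start are shown for 3 genes that have it and for Rpl7l1, which does not. Capitals mark the run from its start within the 5 bases searched, and in Rpl35 the stretch of C and T goes on upstream of the capitals. They lie at chr11:114668550-114668599 (plus, Rpl38), chr2:39005112-39005161 (minus, Rpl35), chr4:86857348-86857397 (minus, Rps6) and chr17:46782637-46782686 (minus, Rpl7l1).
Rpl38: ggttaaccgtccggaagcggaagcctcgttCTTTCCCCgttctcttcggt
Rpl35: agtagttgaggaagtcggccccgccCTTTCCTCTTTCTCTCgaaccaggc
Rps6: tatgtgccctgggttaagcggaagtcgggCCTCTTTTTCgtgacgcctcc
Rpl7l1: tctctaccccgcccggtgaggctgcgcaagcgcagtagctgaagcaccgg
A match is a description of these letters, and annotated starts can be off by some bases.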

How the data were processed

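Bulk RNA sequencing of mouse tail skin used oligo(dT) selection, a NEBNext Ultra kit and a NovaSeq instrument, per the labels' protocols. The authors deposited 1 table of expected counts (estimated counts per gene, not normalized), of which 3107 genes hold values that are not whole. Bowtie2 2.2.8, HISAT2, StringTie 1.3.1 and DESeq2 are named in the submitters' processing notes, without their roles. Genome build, counting program and use of strand are not stated there. The table's 19220 rows gave 19218 genes after an incomplete row and a row with no symbol were left out. No 2 libraries agreed within sampling noise.

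Values were rounded, which changed library totals by at most 22.1. Each comparison was fitted on its own libraries (the interaction on 4 groups) with edgeR 4.0.16 in R 4.3.3 (quasi-likelihood F test, TMM, filterByExpr, robust), tested on simulated data, with Benjamini-Hochberg adjustment over all genes. A gene is called at adjusted p under 0.05. CPM use TMM factors over all 38 libraries. Coding lengths are from GENCODE M21. Alternatives were DESeq2 1.42.0, limma-voom (limma 3.58.1), other scalings and filters, 1 fit over all libraries, a length and GC offset (splines of 4 degrees of freedom), a replicate block and leaving out each library; the adipocyte covariate and the removal of libraries with Y-linked or gut transcripts were added after seeing the data. Genes named were mainly the 3 per subunit with the smallest p in each comparison, called genes against the direction of the list, the 3 of largest fold change against the list's own total, paralogues, the 3 highest and lowest levels, and up to 3 per other list. Rplp0, Rps6 and Rpl4, and short genes in comparisons where they were not among these, were named after their values were seen. Members and lists were chosen with earlier results of these data known.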

Additional observations from a re-analysis of the deposited data

Results flagged for a closer look

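Single libraries stood far from the rest of their group in 6 of 85 gene and group combinations checked, and chance gives about 1 in 20. In vitiligo_ABX 003 Rpl38 had 187 CPM (the nearest other library of the group 146), Rpl39 239.9 CPM (nearest 201) and Rpl36al 158 CPM (nearest 117). In vitiligo_ABX 006 Rpl22l1 had 88.0 CPM (nearest 73.6). Rpl7l1 had 104.5 CPM in vitiligo 001 (nearest 82.9) and 97.0 CPM in hippuric_acid 5 (nearest 84.5). The difference with ABX in Rpl7l1 was greater with induction than without, by 0.42 on the log2 scale in the interaction test of edgeR (adjusted p = 0.0156).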

How the results depend on the processing

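Among genes named by rule, 271 values kept direction and side of the threshold under alternatives other than leaving out 1 library, 50 lost the call and 8 changed sign; leaving out 1 library gave 358 and 30, with none changing sign. Counts of ribosomal protein genes called moved as follows. The share of all genes called in the same fits was not compared, so a changed count need not be particular to the list. In vitiligo against no_induction DESeq2 called 1 and limma-voom 15. With the length and GC offset the counts were 39 (vitiligo_ABX against vitiligo), 11 (no_induction_ABX against no_induction), 4 (vitiligo_ABX against no_induction_ABX) and 3 (interaction). Library totals alone gave 8 in no_induction_ABX against no_induction; medians of the list and of all genes were then -0.31 and 0.14 in vitiligo_ABX against vitiligo, -0.16 and 0.15 in no_induction_ABX against no_induction and -0.39 and 0.19 in hippuric_acid against vehicle. Vitiligo_ABX against no_induction_ABX fell to 0 with RLE, TMM without the list, library totals or no filter. Without libraries holding gut transcripts vitiligo_ABX against vitiligo gave 40, and without those holding Y-linked or gut transcripts no_induction_ABX against no_induction gave 13; the interaction without Y-linked libraries gave 2 and with limma-voom 8. With the adipocyte covariate the counts were 0, 3, 0, 0 and 0 in vitiligo_ABX against vitiligo, no_induction_ABX against no_induction, vitiligo_ABX against no_induction_ABX, hippuric_acid against vehicle and the interaction. Medians then changed sign to 0.10, 0.18 and 0.13 in the first, second and last of these, and to -0.38 in vitiligo against no_induction. In several of these comparisons adipocyte levels did not overlap or barely overlapped. There the covariate cannot be reliably separated from the group, so a lost call or changed sign decides nothing. Under the same covariate Rpl39l (0.71), Rps12 (0.091), Rps21 (0.24) and Rps29 (0.50) changed sign in vitiligo_ABX against vitiligo, Rpl22l1 (0.13), Rpl39l (0.0041) and Rps27l (0.30) in no_induction_ABX against no_induction, and Rpl39l (0.0358) in hippuric_acid against vehicle, none of them called. The mean log2 count per gene moved the large to small difference of hippuric_acid and vehicle to 0.044. The replicate block left 0 calls in vitiligo_ABX against vitiligo (4 libraries) and 0 in vitiligo_ABX against no_induction_ABX. It left 28 in no_induction_ABX against no_induction and 13 in hippuric_acid against vehicle. Deviations of same-numbered libraries had correlations from -0.19 to 0.37, and differently numbered pairs were not compared. Whether same-numbered libraries belong together is not stated in the labels. Vitiligo and no_induction share too few numbers for a block. Leaving out 1 library gave 0 to 2 calls in vitiligo against no_induction, 12 to 43 in no_induction_ABX against no_induction, 0 to 1 in vitiligo_ABX against no_induction_ABX, and 30 to 58 in hippuric_acid against vehicle (6 to 15 against the list's own total). The log2 ratio of summed shares in hippuric_acid against vehicle was -0.47 without vehicle 003 and -0.18 without vehicle 001. The causes were not tested. With 3 vehicle libraries that comparison rests on few samples, and counts of Rpl39l are low.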
